A study of Mus musculus with 30 samples.

Results

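In all, 10 heat-shock genes were followed across whole forebrain and isolated brain cells of 15 mice: the cytosolic HSP70 genes Hspa1a, Hspa1b and Hspa8, their partners Hsph1, Dnajb1 and Bag3, the HSP90 gene Hsp90aa1, the small heat-shock protein gene Hspb1, the endoplasmic reticulum HSP70 gene Hspa5, and Hsf1, which encodes the main transcription factor of the heat-shock response. They were taken by gene symbol and are all found among the 51752 genes in the deposited count table. In a genotype experiment, 4 mice heterozygous for Il34 (Het) were set against 3 that lacked it (KO). In an antibody experiment on wild-type mice, 4 given a control antibody to gp120 (anti-gp120) were set against 4 given a blocking antibody to interleukin-34 (anti-IL34). Controls of the genotype experiment therefore carried 1 Il34 copy, and the controls of the antibody experiment had also received an antibody. Each perfused animal gave 1 library from the forebrain of 1 hemisphere and 1 library from cells of the other hemisphere caught on magnetic beads through the surface protein CD11b, called isolates below. Ages, strain, antibody dose and the temperature and enzymes of the isolation are not given in the labels used here. Sexes were balanced in both control arms (2 and 2), whereas only animal 3 of the KO arm was male and only animal 11 of the anti-IL34 arm was female.

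Heat-shock proteins are chaperones that bind unfolded protein and help it refold or pass to degradation. In resting cells HSF1 is held inactive in the cytosol, and heat, oxidants or a load of damaged protein release it to bind heat-shock elements, inverted repeats of a GAA unit, upstream of its target genes. Hspa8 and Hsp90aa1 are made in quantity in unstressed neurons, whereas Hspa1a and Hspa1b are the classical inducible genes and are nearly silent at rest. Microglia, the macrophages of the brain, are known to switch on stress and immediate early genes while tissue is being dissociated.

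Library depth ran from 15.1 to 75.2 M counts in forebrain and from 15.8 to 50.5 M in isolates. Levels are counts per M counts (CPM) after TMM scaling over all 30 libraries. As a check of the isolates, the 9 microglia markers measured (among them Csf1r, P2ry12 and Tmem119) summed to 96.7 to 445 CPM in forebrain and 4130.4 to 18344 CPM in isolates. Isolates were not pure by these measures. Their 8 neuron markers summed to 895 to 6379 CPM, against 8771 to 10145 CPM in forebrain. The 6 astrocyte markers summed to 2673 to 16815 CPM in isolates (mean 10037) and 5018 to 6906 CPM in forebrain (mean 6345). For the 6 oligodendrocyte markers the sums were 3095 to 18897 CPM in isolates (mean 8956) and 3662 to 6191 CPM in forebrain (mean 4996). Choroid plexus markers ran from 3.25 to 8.19 CPM in anti-gp120 isolates to 1647 to 3814 CPM in Het isolates. Endothelial markers summed to 610 to 1260 CPM in isolates and 205 to 267 CPM in forebrain. Border macrophage markers (287 to 751 CPM) and neutrophil and monocyte markers (39.7 to 469 CPM) were present too, and CD11b is carried by border macrophages, neutrophils and monocytes as well. Il34 RNA in forebrain fell in the KO arm as labelled, from 21.0 ± 2.53 CPM (SD, n = 4) in Het to 7.46 ± 0.883 CPM (SD, n = 3). In isolates Il34 was low in both arms and overlapped (5.06 to 10.3 CPM in Het, 5.17 to 7.05 CPM in KO), so it does not check the isolates' labels.

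In GRCm38, Hspa1a and Hspa1b sit close together on chromosome 17, both on the minus strand, at chr17:34969190-34972156 and chr17:34956436-34959238, and each is a single exon in GENCODE M21. Their coding sequences shared 1918 of 1929 aligned bases (99.4% identity, 8 mismatches and 3 gap bases), against 74.1% for Hspa1a with Hspa8 and 59.7% for Hspa1a with Hspa5. The 250 bases ahead of their RefSeq starts differed at 3 of 250 positions. Both stretches are printed because these are the genes that differed most between the tissues, together with that of Hspb1. Capitals mark matches to GAANNTTC, a head-to-head pair of heat-shock units, searched on both strands in RefSeq promoters of GRCm38.p6.
Hspa1a, chr17:34972157-34972406, minus strand: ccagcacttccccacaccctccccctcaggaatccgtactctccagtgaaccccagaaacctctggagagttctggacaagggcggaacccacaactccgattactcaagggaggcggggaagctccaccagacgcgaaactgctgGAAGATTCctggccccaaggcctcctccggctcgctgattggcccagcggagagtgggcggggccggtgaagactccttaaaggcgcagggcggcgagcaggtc
Hspa1b, chr17:34959239-34959488, minus strand: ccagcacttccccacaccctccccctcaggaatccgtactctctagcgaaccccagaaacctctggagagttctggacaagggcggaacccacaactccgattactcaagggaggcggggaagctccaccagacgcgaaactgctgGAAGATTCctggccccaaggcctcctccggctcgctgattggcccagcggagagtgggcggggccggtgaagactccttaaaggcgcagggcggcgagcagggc
Hspb1, chr5:135887669-135887918, plus strand: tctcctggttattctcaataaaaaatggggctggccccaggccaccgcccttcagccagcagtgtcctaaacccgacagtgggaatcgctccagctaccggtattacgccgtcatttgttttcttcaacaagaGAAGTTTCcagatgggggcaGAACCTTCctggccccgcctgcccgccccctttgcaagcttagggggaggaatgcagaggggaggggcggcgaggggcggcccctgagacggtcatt
In Hspa1a and Hspa1b the match GAAGATTC lay 104 to 97 bases before the start. Hspb1 held 2 such pairs, GAAGTTTC and GAACCTTC, at 117 to 110 and 97 to 90 bases before its start. Of the 32851 promoter windows of this length in the table, 6.69% held GAANNTTC, 7.17% held the tail-to-tail pair TTCNNGAA and 12.8% held either. A run of 3 alternating units (GAANNTTCNNGAA or TTCNNGAANNTTC) was in 0.466% of all windows and in 0 of the 7 members listed there.

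Among the other members with a window, Hsph1 held the tail-to-tail pair and Hspa5 held the endoplasmic reticulum stress element, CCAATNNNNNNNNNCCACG, the site through which the unfolded protein response acts on that gene and a pattern found in 0.113% of all windows. The overlap of these windows with the GENCODE gene models is why only 30 bases around each match are shown, with the match in capitals.
Hsph1, chr5:149636351-149636380, minus strand: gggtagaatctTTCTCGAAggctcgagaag
Hspa5, chr2:34772020-34772049, plus strand: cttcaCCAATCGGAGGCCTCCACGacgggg
The pair in Hsph1 was 33 to 26 bases before the first of its 2 RefSeq starts and 54 to 47 before the other, and the element in Hspa5 was 65 to 47 bases before its start. Windows of Dnajb1 and Bag3 held none of these letter patterns. Hspa8, Hsp90aa1 and Hsf1 had no window in the table. Such matches describe the sequence and do not show that a factor bound there.

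In forebrain, Hspa1a and Hspa1b were rare, and in isolates they were among the most abundant messages. Hspa1a in forebrain was 1.13, 1.22, 1.43 and 1.70 CPM in Het animals 1, 20, 21 and 23, and 1.01, 1.65 and 1.62 CPM in KO animals 3, 6 and 24. Forebrain of anti-gp120 animals 1, 7, 8 and 15 had 1.29, 1.17, 1.38 and 1.44 CPM, and that of anti-IL34 animals 2, 10, 11 and 24 had 1.56, 0.839, 1.68 and 1.05 CPM. These levels rested on 22 to 99 counts per library, and the 4 arms overlapped.

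Isolates of the same animals had 1517, 1052, 2018 and 1697 CPM of Hspa1a in Het and 747, 463 and 561 CPM in KO. With anti-gp120 the isolates had 1760.0, 1406, 1378 and 1129 CPM, and with anti-IL34 968, 817, 1304 and 759 CPM. The lowest isolate (463 CPM) stood far above the highest forebrain (1.70 CPM), and the lowest isolates were the 3 of the KO arm. Hspa1a in isolates over forebrain was 1136-fold in Het (log2 10.15, SE 0.27), 455-fold in KO (8.83, SE 0.30), 1097-fold with anti-gp120 (10.10, SE 0.29) and 749.7-fold with anti-IL34 (9.55, SE 0.30), with adjusted edgeR p of at most 7.04e-09.

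Hspa1b, the near copy, went from 0.494 to 1.57 CPM over the 15 forebrains to 1714, 1258, 2261 and 1960.2 CPM in Het isolates and 854, 544 and 663 CPM in KO isolates. In the antibody experiment its isolates had 2061, 1651, 1649.6 and 1313 CPM with anti-gp120 and 1094, 935, 1532 and 844 CPM with anti-IL34. The order of the libraries was nearly that of Hspa1a. Its fitted log2 differences between isolate and forebrain were 11.32 (SE 0.28) in Het, 10.05 (SE 0.32) in KO, 10.72 (SE 0.36) with anti-gp120 and 10.32 (SE 0.37) with anti-IL34.

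The share of reads given to each copy was stable in isolates, with a ratio of Hspa1a to Hspa1b counts of 0.836 to 0.900 (median 0.860, n = 15). In forebrain, with few reads, it spread from 0.880 to 3.27 (median 1.76, n = 15). Of all 100-base stretches of the Hspa1a transcript 47.1% also occur in Hspa1b, and the submitters' notes do not say how reads that match both were treated, so the level of each copy alone is uncertain. Gm20481, on the other strand inside Hspa1a, had a median of 1 count in forebrain and 259 in isolates, and reads of the pair cannot be told apart where counting did not use strand. Together the 2 genes made up 28.0 to 42.2% of the members' counts in isolates and 0.105 to 0.227% in forebrain. Per exon length (transcripts per M transcripts, TPM, recomputed on exon lengths), Hspa1b had a median of 1598 and Hspa1a 1285 in isolates, with median ranks of 39 and 48 among all genes, against medians of 1.15 and 1.91 in forebrain.

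**Figure D1:**
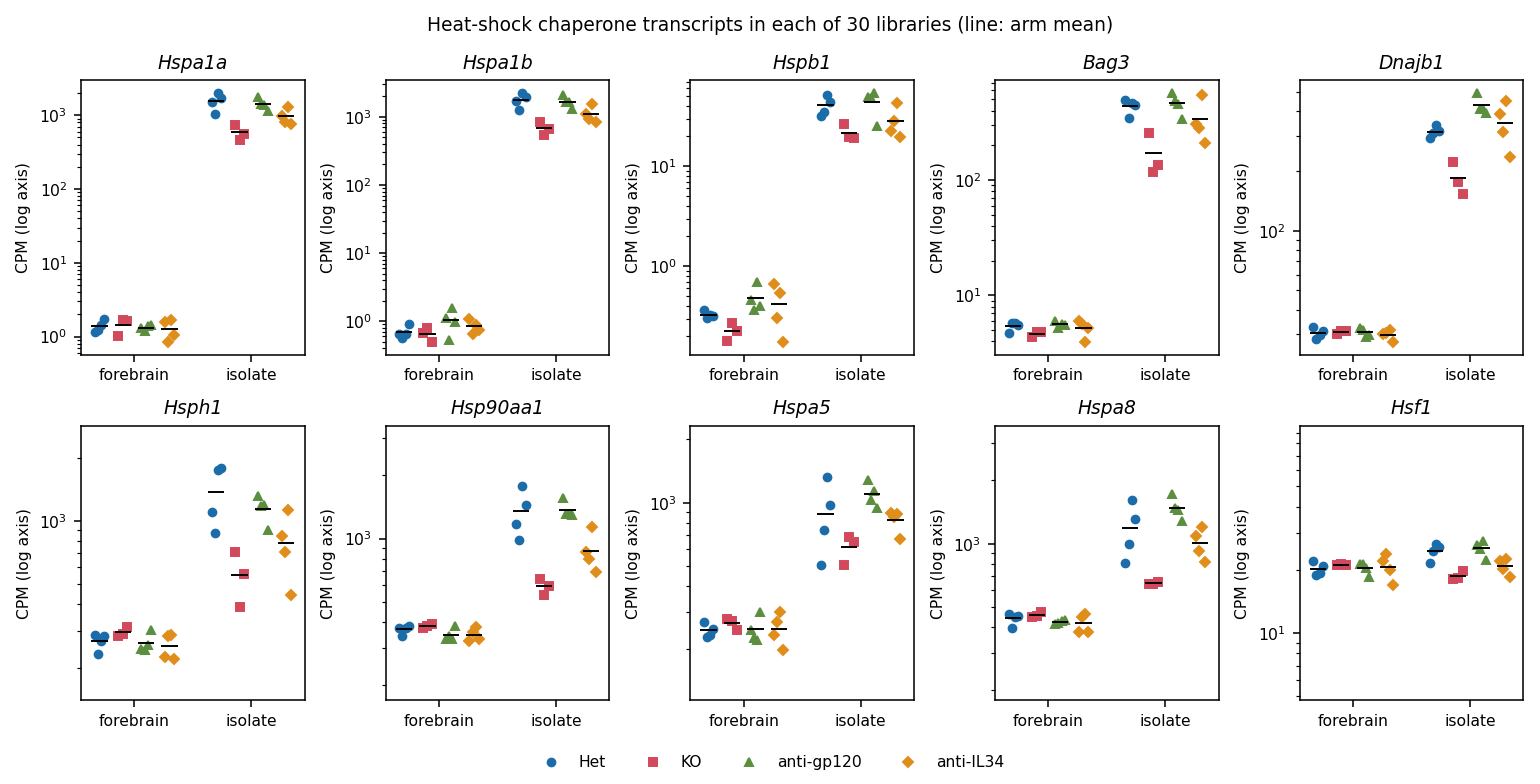
Level of each gene in all 30 libraries, CPM on a log axis, with forebrain on the left and isolates on the right of each panel. Each point is 1 library, colour and shape give the arm, and the line is the arm mean. Hspa1a, Hspa1b, Hspb1 and Bag3 are widely separated between the tissues, while Hsf1 spans 16.9 to 23.7 CPM in forebrain and 18.1 to 27.3 CPM in isolates.

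Hspb1, a small ATP-independent chaperone that also binds actin filaments, and Bag3, a co-chaperone that links HSP70 to autophagy, were the next largest differences. Hspb1 was 0.174 to 0.689 CPM in forebrain, on 4 to 35 counts. In isolates it was 32.1, 34.98, 51.3 and 44.0 CPM in Het and 26.5, 19.7 and 19.1 CPM in KO. Antibody isolates had 49.6, 48.2, 54.4 and 25.5 CPM with anti-gp120 and 22.8, 28.3, 42.8 and 19.5 CPM with anti-IL34. All isolates were above all forebrains, and the anti-gp120 library of animal 15 stood below the other controls. The log2 difference between isolate and forebrain was 6.93 (SE 0.21) in Het and 6.58 (SE 0.27) in KO. In the antibody experiment Hspb1 failed the low-count filter within forebrain and entered the comparison of tissues only through the isolates, where it is high, so its differences there, 6.59 with anti-gp120 and 6.11 with anti-IL34, are descriptions.

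Bag3 was 3.94 to 6.02 CPM in forebrain. Isolates had 496, 345, 463 and 446 CPM in Het, 258, 118 and 136 CPM in KO, 571, 487, 458 and 341 CPM with anti-gp120, and 307, 283, 550.5 and 209 CPM with anti-IL34. The lowest 2 isolates were KO animals 6 and 24, and the spread was widest in the anti-IL34 arm. Bag3 log2 differences between the tissues were 6.32 (SE 0.18) in Het, 5.24 (SE 0.20) in KO, 6.45 (SE 0.31) with anti-gp120 and 6.11 (SE 0.31) with anti-IL34.

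Dnajb1, the J-domain partner that delivers clients to HSP70, went from 27.4 to 32.7 CPM in forebrain to 292, 309.7, 343 and 317 CPM in Het isolates and 222, 177 and 154 CPM in KO isolates. Antibody isolates had 497, 411, 413 and 395 CPM with anti-gp120 and 387, 315, 451 and 237 CPM with anti-IL34. Forebrain values barely varied between animals, and every isolate was higher. The fitted differences were 10.3-fold in Het (log2 3.36, SE 0.11), 6.12-fold in KO (2.61, SE 0.13), 14.4-fold with anti-gp120 (3.85, SE 0.18) and 11.95-fold with anti-IL34 (3.58, SE 0.18).

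The abundant cytosolic chaperones were already high in forebrain and differed by smaller factors. Hsph1, a nucleotide exchange factor of HSP70, was 221 to 311 CPM in forebrain and 389 to 1786 CPM in isolates, with log2 differences of 2.36 (SE 0.24) in Het, 0.93 (SE 0.27) in KO, 2.19 (SE 0.23) with anti-gp120 and 1.62 (SE 0.23) with anti-IL34. Hsp90aa1, the stress-responsive cytosolic HSP90, was 325 to 391 CPM in forebrain and 541 to 1789 CPM in isolates, with log2 differences of 1.86 (SE 0.16), 0.68 (SE 0.19), 2.03 (SE 0.14) and 1.34 (SE 0.14) in the same order of arms. Hspa8, the constitutive cytosolic HSP70, was 379 to 474 CPM in forebrain and 641 to 1720 CPM in isolates. Its log2 difference was 1.42 (SE 0.19) in Het, 1.85 (SE 0.14) with anti-gp120 and 1.26 (SE 0.15) with anti-IL34, whereas the KO value, 0.51 (SE 0.23), missed the threshold (adjusted edgeR p 0.0634) although its 3 isolates (641 to 659 CPM) lay above its 3 forebrains (448 to 474 CPM).

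Hspa5, the HSP70 of the endoplasmic reticulum, also known as BiP, was 199 to 303 CPM in forebrain and 502 to 1329 CPM in isolates. Its log2 difference was 1.85 (SE 0.25) in Het, 1.18 (SE 0.30) in KO, 2.18 (SE 0.16) with anti-gp120 and 1.67 (SE 0.16) with anti-IL34. Hsf1 itself was nearly level, at 16.9 to 23.7 CPM in forebrain and 18.1 to 27.3 CPM in isolates. Its isolates were higher by 0.27 on the log2 scale in Het (SE 0.08, adjusted edgeR p 0.00996) and by 0.36 with anti-gp120 (SE 0.11, adjusted edgeR p 0.0105). In KO its log2 difference was -0.18 (SE 0.10, adjusted edgeR p 0.124) and with anti-IL34 0.06 (SE 0.12, adjusted edgeR p 0.679), neither past the threshold. The 3 KO isolates nevertheless all lay below the 3 KO forebrains.

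Counted over the 10 members, 10 were higher in Het isolates than in Het forebrain (edgeR, Benjamini-Hochberg adjusted p under 0.05), where 37.5% of all 20107 genes tested were higher. In KO 8 were higher against 34.5% of all genes, with anti-gp120 10 against 39.2%, and with anti-IL34 9 against 39.1%. Some of these calls depended on single animals or settings. In KO, Hsph1 (log2 0.70, adjusted edgeR p 0.211) and Hsp90aa1 (0.73, adjusted edgeR p 0.0843) did not pass without KO 3, which left 6 members. Hspa8 passed as higher in KO without Het 1, without Het 21, without the filter on low counts, without sex terms and with DESeq2. Hsf1 passed as lower in KO (-0.19, adjusted edgeR p 0.0477) without Het 21, which gave 10 members past the threshold, all but Hsf1 higher. Hsf1 did not pass in Het without Het 21 (adjusted edgeR p 0.0643) or without the filter (adjusted edgeR p 0.0681), or with anti-gp120 without animal 1 (adjusted edgeR p 0.0514). With anti-IL34 the count was 9 without each animal in turn. The counts of both antibody arms include Hspb1, whose entry into that fit depended on its high isolates. Isolates lay above forebrain without overlap for 9 members in Het, 9 in KO, 10 with anti-gp120 and 9 with anti-IL34, where this held for 35.3%, 38.5%, 35.2% and 37.1% of all genes. The members' median log2 difference was 2.86 in Het, 1.90 in KO, 3.02 with anti-gp120 and 2.62 with anti-IL34, against -0.05, 0.00, -0.01 and 0.06 over all genes tested. Within animals, 9 of the 10 genes were higher in the isolate than in the forebrain of the same animal in 15 of 15 animals, with median ratios from 2.58 (Hspa8) to 93.3 (Hspb1), 864 (Hspa1a) and 1432 (Hspa1b). Hsf1 was higher in 10 of 15, with ratios of 0.855 to 1.37. The share of all genes that were higher in 15 of 15 animals is not given here.

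**Figure D2:**
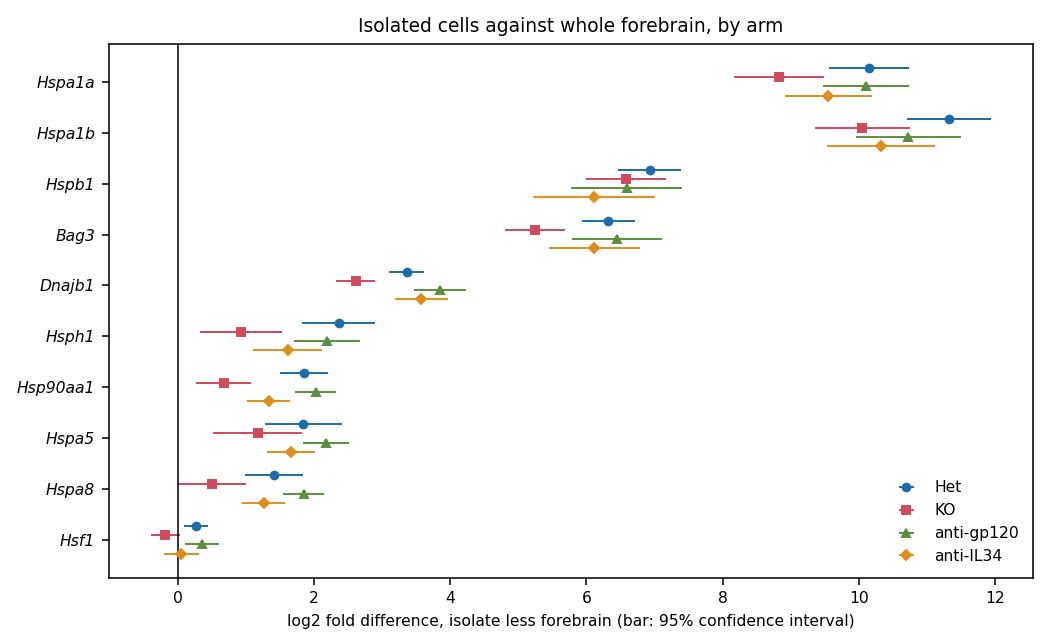
Difference between isolate and forebrain in each arm, on the log2 scale, for the 10 genes. Points are fitted values and bars 95% confidence intervals. All 4 arms run from Hspa1b (10.05 to 11.32) down to Hsf1 (-0.18 to 0.36), with the KO point lowest for all but Hspb1 (6.58, above 6.11 with anti-IL34).

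In bulk RNA a gene can be higher because more cells of 1 type are present or because each cell holds more of its RNA, and these cannot be told apart here. The same holds for the ratios below, which set a member's difference between isolate and forebrain beside that of microglia markers, were chosen after the values were seen and are given as a description. Hspa8, Hsp90aa1, Hsph1 and Hspa5 are also abundant in whole forebrain, and none of the members' ratios measures the level per cell. The 9 microglia markers, summed, were 32.6 to 78.9 times higher in the isolate than in the forebrain of the same animal (median 38.6, n = 15). Divided by that of the markers, the ratio of isolate to forebrain was 20.1 for Hspa1a (median, range 7.26 to 36.5) and 34.8 for Hspa1b (17.7 to 94.6), above 1 in 15 of 15 animals. It was 2.13 for Hspb1 (1.01 to 4.11) and 1.54 for Bag3 (0.615 to 2.86, above 1 in 13 of 15 animals). It was below 1 in all 15 animals for Dnajb1 (0.239), Hsph1 (0.0774), Hspa5 (0.0737), Hsp90aa1 (0.0688) and Hspa8 (0.0551, medians). Hsf1, at 0.0239 (median), was lower in the isolate than in the forebrain in 5 of 15 animals. Stated the other way, Hspa1a and Hspa1b together came to 0.392 to 2.18% of the summed markers in forebrain and to 17.97 to 38.8% in isolates.

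Other chaperone lists are read here against all genes tested, of which 37.5% were higher and 40.5% lower in Het isolates, 34.5% and 35% in KO, 39.2% and 39.5% with anti-gp120, and 39.1% and 35.9% with anti-IL34. Among 33 other cytosolic chaperones and co-chaperones, 14 were higher and 9 lower in Het isolates, 11 and 11 in KO, 15 and 7 with anti-gp120, and 13 and 9 with anti-IL34, shares of higher calls near those over all genes. Hspa1l, a relative that neighbours Hspa1a and could share some of its reads, was highest (log2 5.73, SE 0.22, in Het), followed in Het by Dnaja1 (1.63), a J-domain partner of Hspa8, while Bag4 (-1.72), Dnajb5 (-1.98) and Hspbp1 (-1.29) were lower. In the mitochondrion, the chaperonin pair Hspe1 (3.11 in Het, 2.10 in KO) and Hspd1 (2.15 in Het, 0.97 in KO) was higher, and of 9 mitochondrial chaperones 3 were higher and 2 lower in Het, 2 and 1 in KO, 5 and 2 with anti-gp120, and 3 and 1 with anti-IL34. The 8 CCT subunits, which fold actin and tubulin, gave 1 higher and 3 lower in Het, 0 and 3 in KO, 4 and 1 with anti-gp120, and 1 and 1 with anti-IL34. Of 22 other endoplasmic reticulum genes, both chaperones and members of the unfolded protein response, 19 were higher in Het isolates, 13 in KO, 20 with anti-gp120 and 18 with anti-IL34, including the disulfide isomerases P4hb (2.09 in Het) and Pdia4 (1.47) and the degradation factor Edem1 (3.88). Of 5 other heat-shock factor genes and regulators 3 were lower in Het isolates, Hsf2 (-0.31), Hsf5 (-2.11) and Hsbp1 (-0.92), and 1 was higher, Hsf2bp (4.12). The list gave 1 higher and 3 lower in KO, 1 and 4 with anti-gp120, and 1 and 2 with anti-IL34.

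Genes known to respond to tissue dissociation were measured in the same libraries. Of 22 immediate early genes, 21 were higher in isolates in each of the 4 arms, where 34.5 to 39.2% of all genes were higher, and 1, Egr3, was lower. Atf3 (log2 12.19, SE 0.51), Jun (5.79, SE 0.19) and Klf2 (5.94, SE 0.25) had the smallest p-values in Het. Summed, these 22 genes were 532 to 977 CPM in forebrain and 4849 to 19130.4 CPM in isolates. Of 8 oxidative stress genes 6 were higher in Het and KO isolates and 7 in both antibody arms, led by Hmox1 (8.52 in Het). As with Hspb1, 1 gene in each of the oxidative stress, cytosolic (Hspa1l), endoplasmic reticulum and heat-shock factor (Hsf2bp) lists failed the low-count filter within forebrain of the antibody experiment, and entered those comparisons of tissues through the isolates. Since forebrain was not dissociated, and the isolates were both dissociated and enriched in CD11b-positive cells, dissociation and cell type cannot be told apart in this contrast. No library of dissociated but unselected cells is among those analysed here.

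Whether loss of IL-34 was accompanied by a different chaperone level was asked within each tissue. No member passed in forebrain. For KO against Het, edgeR called 0 of 10 members (2 at an unadjusted p under 0.05, DESeq2 0), where it called 0.622% of all genes (7.46% unadjusted, DESeq2 0.927%), and the members' log2 differences ran from -0.50 (Hspb1) to 0.17 (Hsph1). Hsph1 alone passed without the filter on low counts (log2 0.17, adjusted edgeR p 0.0243). For anti-IL34 against anti-gp120, edgeR called 0 of the 9 members tested (0 at an unadjusted p under 0.05, DESeq2 0), against 0.717% of all genes (4.86% unadjusted, DESeq2 1.15%), with values from -0.20 (Hspa1b) to 0.09 (Hspa5). Hspb1 was left out there by the filter on low counts. Over the same libraries 8 of 9 microglia markers fell in forebrain in KO (median log2 difference -1.37) and 8 of 9 with anti-IL34 (median -1.30), and 5 of 6 oligodendrocyte markers fell in KO forebrain (median -0.35). The 95% interval of Hsp90aa1, -0.03 to 0.18 in KO and -0.08 to 0.19 with anti-IL34, bounds the forebrain difference of an abundant member, while that of the rare Hspa1a was -0.45 to 0.46 in KO.

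In isolates all 10 members had a lower fitted level in KO than in Het, with a median log2 difference of -1.0, against 0.02 over all genes. In all, 4 passed the threshold, with log2 differences of -1.33 for Bag3 (SE 0.22, adjusted edgeR p 0.0231), -1.34 for Hspa1a (SE 0.26, adjusted edgeR p 0.0357), -1.33 for Hspa1b (SE 0.26, adjusted edgeR p 0.0364) and -0.75 for Dnajb1 (SE 0.16, adjusted edgeR p 0.0442). These are folds of 2.51, 2.54, 2.51 and 1.68, and 5.22% of all genes were called lower. At an unadjusted p under 0.05 edgeR had 9 members against 32.6% of all genes, and DESeq2 called 9 against 20.9%. With the counts of the near copies summed, the pair's log2 difference was -1.33 (adjusted edgeR p 0.0507). The other members had values of -1.28 (Hsph1), -1.13 (Hsp90aa1), -0.87 (Hspb1), -0.85 (Hspa8), -0.55 (Hspa5) and -0.39 (Hsf1), with adjusted edgeR p from 0.0516 (Hsp90aa1) to 0.305 (Hspa5). Every KO isolate was below every Het isolate for 9 of the 10 genes, where 20% of all genes were lower without overlap. Hspa5 was the exception, since Het animal 1 (504 CPM) lay within the KO range (502 to 683 CPM).

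The calls rest on which animals are in the fit. Members called numbered 0 without Het 20, without Het 23, without KO 3, without KO 6 or without KO 24, 9 without Het 1 and 6 without Het 21. Calls over all genes moved with them, from 976 with all animals to 0 in those 5 fits, 5756 without Het 1 and 3115 without Het 21. The direction held in each of these fits for all 10, and the log2 difference of Hspa1a stayed between -1.48 and -1.12.

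Tissue dependence was tested as an interaction, the isolate-to-forebrain difference in KO less that in Het. Hsp90aa1 (log2 -1.18, SE 0.24, adjusted edgeR p 0.0318), Bag3 (-1.08, SE 0.23, adjusted edgeR p 0.0343), Dnajb1 (-0.75, SE 0.16, adjusted edgeR p 0.0378) and Hspa1a (-1.32, SE 0.31, adjusted edgeR p 0.0481) passed, 4 of 10 where 2.43% of all genes were lower (DESeq2 8 of 10, against 17.9%). With the animal as a block, which pairs the 2 libraries of each mouse, 0 passed (0 of all genes too). Without Het 1 the count was 8, among 5688 genes, and without Het 21 it was 7, among 3243 genes, where all animals gave 599 genes. Without Het 20, Het 23, KO 3, KO 6 or KO 24 it was 0.

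With anti-IL34 the 10 members again had lower fitted levels than with anti-gp120 in isolates, by smaller amounts, with a median of -0.54 against 0.06 over all genes. None passed (edgeR 0 of 10, 6 at an unadjusted p under 0.05, DESeq2 2, Hspa8 and Hsp90aa1), where 0.603% of all genes were called lower (25.9% unadjusted in either direction, DESeq2 11.5%). The largest were Hspb1 (-0.63, SE 0.30), Hsp90aa1 (-0.62, SE 0.18), Hspa1b (-0.59, SE 0.23) and Hspa1a (-0.55, SE 0.22, 95% interval -1.06 to -0.03). The groups did not overlap for 3 genes, Hspa8, Hsp90aa1 and Hspa5, against 10.8% of all genes. The isolate of anti-IL34 animal 11 lay within the control range for Hspa1a (1304 CPM) and Bag3 (550.5 CPM), and the lowest control was often anti-gp120 animal 15. Without anti-gp120 animal 15 edgeR called 7 members and 6905 of all genes, and without anti-IL34 animal 11 it called 1 member and 514 genes, against 110 genes with all animals. The interaction with tissue called 0 of 10 (edgeR, 3 at an unadjusted p under 0.05, DESeq2 2), where edgeR called 0.0924% of all genes (21.1% unadjusted, DESeq2 5.94%), and 3 without anti-gp120 animal 15. A difference between the KO and the antibody effects on these genes was not tested.

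**Figure D3:**
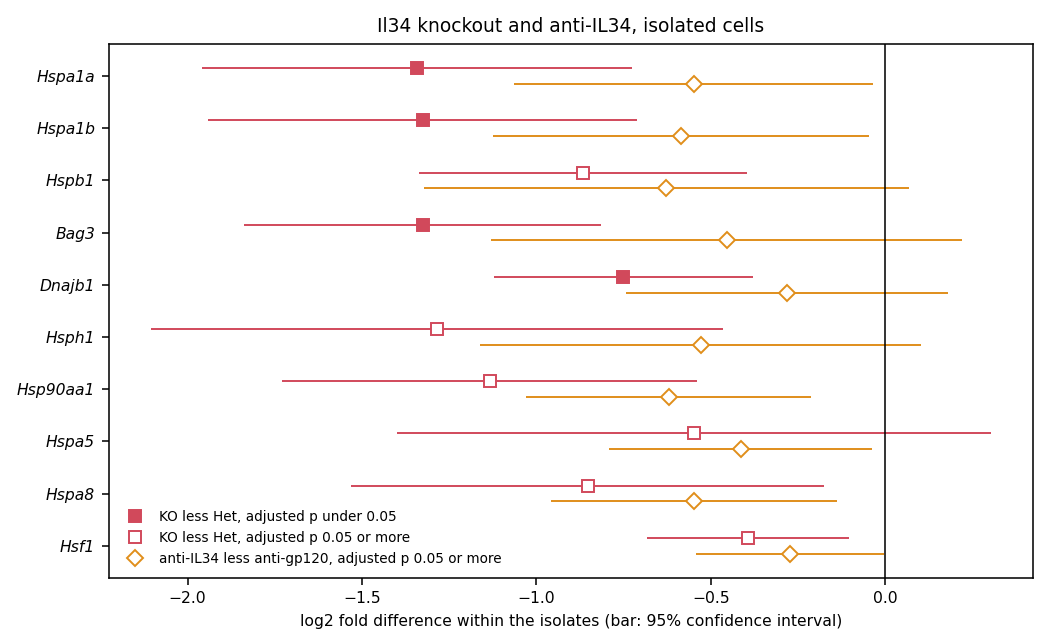
Difference between arms within isolates on the log2 scale, KO less Het (squares) and anti-IL34 less anti-gp120 (diamonds), with 95% confidence intervals. Filled symbols passed an adjusted p of 0.05: Hspa1a, Hspa1b, Bag3 and Dnajb1 in KO. All 20 points lie below 0.

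Summed cell type markers differed between arms of the isolates as well, with overlap for some. In KO isolates the 9 microglia markers all fell (median log2 difference -1.57), and their sum was 4130.4 to 4485 CPM against 10643 to 18266 CPM in Het. With anti-IL34 the sum was 5819 to 9151 CPM against 13591 to 18344 CPM with anti-gp120. Of the 9 markers 4 passed there, where 0.603% of all genes were called lower. The 6 astrocyte markers summed to 10719.8 to 13644 CPM in KO and 2673 to 9773 CPM in Het isolates, and the 8 neuron markers to 3082 to 5024 CPM and 895 to 3373 CPM. In the antibody experiment the astrocyte sums overlapped (9102 to 16815 CPM with anti-IL34, 4116 to 16517 CPM with anti-gp120), as did the neuron sums (4039.8 to 6379 CPM and 1472 to 5252 CPM). Oligodendrocyte markers, 6 in number, summed to 8220.0 to 18897 CPM in KO and 3095 to 10605 CPM in Het isolates, and to 6490.0 to 13727 CPM with anti-IL34 and 4201 to 10391 CPM with anti-gp120. The 5 border macrophage markers were lower without overlap with anti-IL34 (287 to 399.6 CPM, against 419.7 to 751 CPM with anti-gp120). The 5 choroid plexus markers reached 2162 CPM with anti-IL34 and at most 8.19 CPM with anti-gp120. No defining marker of these types was at 0 in any isolate. Summed marker RNA cannot tell fewer cells from less RNA per cell. The part of these marker differences in the chaperone differences was not tested.

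Set against the markers, the order of the arms depended on the measure. Hspa1a and Hspa1b together came to 30.4, 19.0, 23.4 and 28.3% of the summed markers in Het isolates 1, 20, 21 and 23, and to 38.8, 22.5 and 27.8% in KO isolates 3, 6 and 24. With anti-gp120 they came to 20.8, 21.4, 19.1 and 17.97% in animals 1, 7, 8 and 15, and with anti-IL34 to 29.8, 30.1, 31.0 and 24.1% in animals 2, 10, 11 and 24. The Het and KO ranges overlapped, with means of 25.3 ± 5.10% (SD, n = 4) and 29.7 ± 8.31% (SD, n = 3). The antibody arms did not, and the higher mean was that of anti-IL34, 28.7 ± 3.16% against 19.8 ± 1.58% (SD, n = 4 each). The rise from forebrain to isolate over that of the markers ran the other way for the summed pair, at 23.7 to 43.7 in Het and 10.7 to 26.1 in KO, and at 26.2 to 54.6 with anti-gp120 and 19.9 to 36.0 with anti-IL34, with overlap in both experiments. Neither measure was tested. Both were formed after the values were seen, and the summed markers, the denominator of the share, were themselves lower in KO and with anti-IL34.

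**Figure D4:**
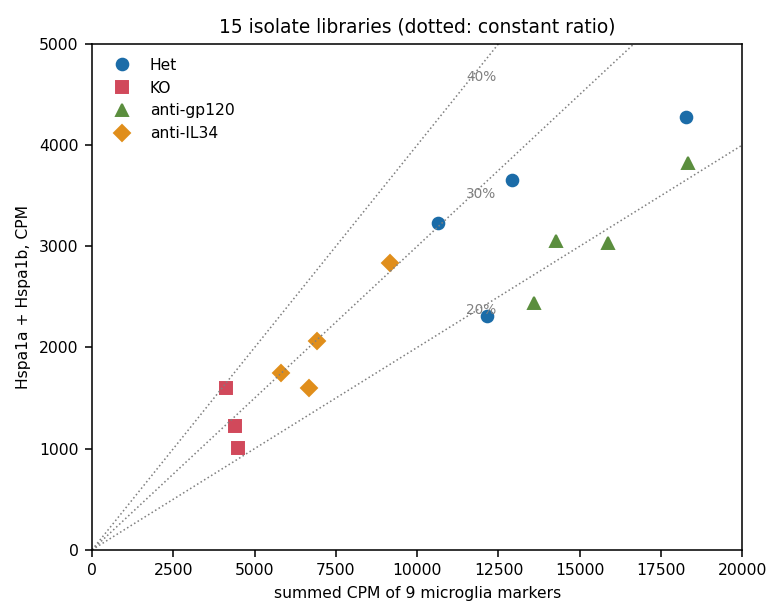
Sum of Hspa1a and Hspa1b against the sum of 9 microglia markers, both in CPM, in the 15 isolates. Dotted lines mark constant ratios. KO and anti-IL34 isolates lie to the left with ratios of 22.5 to 38.8%, and the controls further right with 17.97 to 30.4%. Anti-IL34 animal 11 is higher on the vertical axis than Het animal 20 and anti-gp120 animal 15.

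Among related lists in KO isolates, where 5.22% of all genes were called lower, some genes passed too. Of the 33 other cytosolic chaperones 2 passed, Hspa1l (-1.14, SE 0.19) and Dnaja1 (-0.88, SE 0.17), a share near that over all genes, and of 9 mitochondrial chaperones 2, Hspe1 (-0.998, SE 0.12) and Hspd1 (-1.08, SE 0.23). Among 22 immediate early genes 3 passed, Jun (-1.33, SE 0.25), Klf2 (-1.30, SE 0.26) and Rhob (-1.34, SE 0.27). Of these genes 22 of 22 had a value below 0, where the median over all genes was just above 0. Hsf2bp, which encodes a protein that binds HSF2, passed too (-2.57, SE 0.31). The 22 endoplasmic reticulum genes had a median of -0.38. With anti-IL34, Hsf2bp was lower (-2.93, SE 0.22). The medians were -0.51 for the immediate early genes, again with 22 of 22 below 0, and -0.39 for the endoplasmic reticulum genes. Over all genes the median was again just above 0.

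The level of each other member was set against that of Hspa1a across isolates. Pearson's r with Hspa1a on log2 CPM was computed within each experiment, with exact permutation p-values adjusted over 9 relations. In the genotype experiment (7 isolates) r was 0.999 for the near copy Hspa1b, 0.982 for Hsp90aa1, 0.975 for Hsph1, 0.959 for Bag3, 0.953 for Hspb1, 0.933 for Dnajb1, 0.865 for Hspa8 and 0.844 for Hsf1 (exact permutation p from 0.000198 to 0.029, adjusted 0.00179 to 0.0326). For Hspa5 it was 0.537, with rho = 0.571 (exact permutation p 0.221 and 0.2, adjusted 0.221 and 0.2). Spearman's rank correlation was 0.857 to 1 for the other members in that experiment (exact permutation p from 0.000397 to 0.0238, adjusted 0.00119 to 0.0268). In the antibody experiment (8 isolates) r was 0.999 for Hspa1b, 0.972 for Hspa8, 0.955 for Hsp90aa1, 0.947 for Bag3, 0.932 for Hsph1, 0.907 for Hsf1, 0.902 for Dnajb1, 0.899 for Hspa5 and 0.878 for Hspb1 (exact permutation p from 2.48e-05 to 0.00608, adjusted 0.000223 to 0.00608). The rank correlation there was 0.857 to 1 (exact permutation p from 4.96e-05 to 0.0107, adjusted 0.000446 to 0.0107). Whether Hspa5 differs between the experiments was not tested. Both experiments contain 2 arms that differ in level, so these values include the difference between arms.

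Pooled over 15 isolates, r was 0.971 for Hsp90aa1 (rho 0.971), 0.951 for Hsph1 (rho 0.961), 0.943 for Bag3 (rho 0.886), 0.870 for Hspb1 (rho 0.836), 0.852 for Hspa8 (rho 0.832), 0.843 for Hsf1 (rho 0.818), 0.791 for Dnajb1 (rho 0.686) and 0.623 for Hspa5 (rho 0.725), with adjusted permutation p of at most 0.0136. The pooled isolates span all arms and both experiments, which differ in level, so r, rho and p include those differences. Leaving out the 2 isolates farthest from the Hspa1a median, KO 24 and KO 6, gave 0.963 for Hsp90aa1, 0.598 for Dnajb1 and 0.631 for Hspa5. The rank correlation of Dnajb1 then no longer passed (rho 0.522, permutation p 0.0708, adjusted 0.0708). High values are common among genes in these libraries: of 14228 genes compared, Hsp90aa1 ranked 3, Hsph1 8 and Bag3 17, but Hspb1 ranked 700, Hspa8 985, Hsf1 1127, Dnajb1 2012 and Hspa5 3970. The 5 genes outside the members most like Hspa1a over these 15 libraries were Hspd1 (r = 0.981), Samsn1 (0.964), Rhoh (0.955), Lrch1 (0.955) and Rgs10 (0.954).

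**Figure D5:**
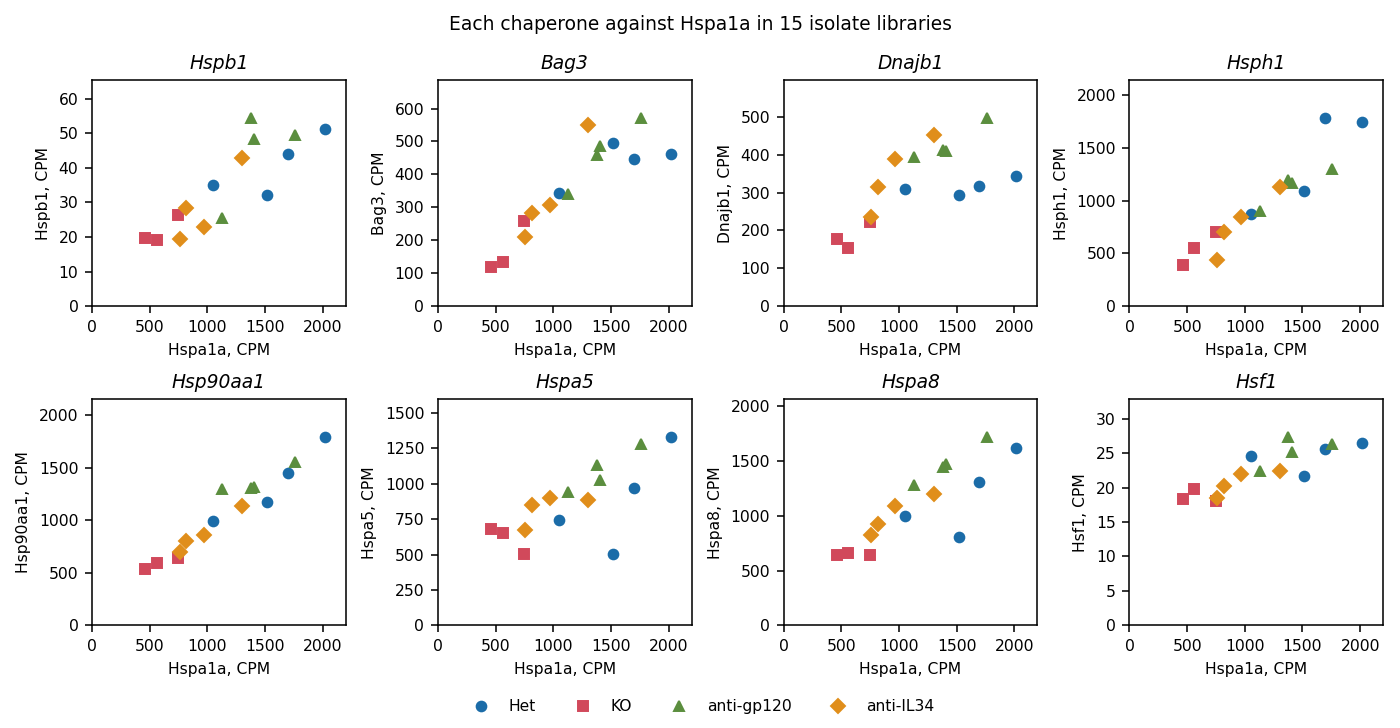
Each of 8 members against Hspa1a in the 15 isolates, CPM on linear axes from 0. Colour and shape give the arm. Hsp90aa1, Hsph1 and Bag3 follow Hspa1a closely, with r from 0.943 to 0.971 on the log2 scale. Hspa5 has the lowest pooled r, 0.623, while by rank Dnajb1 is lowest (rho 0.686, against 0.725 for Hspa5).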

How the data were processed

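RNA from forebrain and CD11b-isolated cells was turned into cDNA libraries with the Takara SMART-Seq v4 kit, per the labels' protocols. The authors deposited whole-number read counts per gene, not normalized; STAR 2.7.5c, featureCounts 1.6.3, R 4.4.0 and GRCm38 are named in the submitters' processing notes without roles, and strand use and the treatment of reads matching several genes are not given in the sources used here. The deposited gene length equalled the whole gene span of GENCODE M21 for 51183 of 51498 matched genes, and the deposited TPM values equalled counts over that length for 491002 of 491002 nonzero values, within a relative 1e-05. Levels between genes were therefore recomputed on exon lengths. Count columns that match no labelled sample, 6 of them, and as many TPM columns, were not used.

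Counts were tested on all genes with edgeR 4.0.16 (R 4.3.3; TMM scaling, default filter on low counts, quasi-likelihood F test, Benjamini-Hochberg adjustment, threshold 0.05). Within a tissue the model held arm and sex; across tissues it held tissue, arm, their product, sex and sex by tissue, over both arms of an experiment. Standard errors are the log2 fold change over the square root of F, and 95% intervals use the fit's degrees of freedom. Alternatives were RLE size factors, no filter, DESeq2 1.42.0, no sex terms, summed Hspa1a and Hspa1b, the animal as a block, and leaving out each animal in turn. Depth was 15.1 to 75.2 M counts, and counting error weighs most on Hspa1a, Hspa1b, Hspb1 and Bag3 in forebrain (4 to 461 counts per library). The 42 pairs of libraries within a group differed by more than sampling noise (lowest chi-square per degree of freedom 5.84). Replicates are separate animals, known from the labels by number and sex.

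Forebrain and isolate carry the same animal number in titles and sample sheet (30 of 30 libraries) and come from the same mouse, which pairs them. Their deviations from group means had a median correlation of 0.109 (0.0394 to 0.172), against -0.0373 between animals. The members and the 17 other gene lists were chosen with earlier results of these data known. All members are reported, and from other lists up to 3 passing genes per direction with the smallest p. Correlations used 100000 permutations over 15 libraries and exact enumeration within an experiment. Promoter sequences and coding identity came from RefSeq (GRCm38.p6, 7 of 10 members found) and GENCODE M21 transcripts.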

Additional observations from a re-analysis of the deposited data

Results flagged for a closer look

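A single library stood out within its group among the 60 groups of 4 examined (chance gives about 1 in 20, so 1 in 60 is fewer than chance would give). Hsp90aa1 in the isolate of anti-gp120 animal 1 was 1556 CPM, next 1316 CPM, a gap of 0.908 of the group's range, above Dixon's critical value for 4 libraries.

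The isolate-to-forebrain difference was smaller in KO than in Het for 4 members by the interaction test, on the log2 scale: Hspa1a -1.32, Dnajb1 -0.75, Hsp90aa1 -1.18 and Bag3 -1.08. With the animal as a block, which pairs the libraries of each mouse, 0 members passed, and 0 passed without Het 20, Het 23, KO 3, KO 6 or KO 24. Microglia marker sums were also lower in KO isolates (4130.4 to 4485 CPM against 10643 to 18266 CPM). They were lower in KO forebrain too (96.7 to 116 CPM against 223 to 256 CPM). Their ratio of isolate to forebrain was 36.3 to 45.5 in KO and 41.6 to 78.9 in Het. Mean sums in KO and Het isolates were 12566 and 6122 CPM for astrocyte, 4259 and 2097 CPM for neuron and 12120.5 and 6646 CPM for oligodendrocyte markers. The part of any of these in the result was not tested.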

How the results depend on the processing

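No member's called difference changed direction under any alternative. Counts of genes past the threshold varied more. For KO less Het in isolates, 976 genes passed, 1966 without the filter, 3807 with DESeq2, 2189 without sex terms, and 0 to 5756 when 1 animal was left out; for members, 4 became 7, 9 and 7 under the same settings, 2 with the near copies summed, and 0 to 9 without 1 animal. For the tissue difference of KO less that of Het, 599 genes became 1569 without the filter, 3595 with DESeq2, 2400 without sex terms and 0 to 5688 without 1 animal; members went from 4 to 8 with DESeq2, 8 without sex terms and 0 to 8 without 1 animal. With the animal as a replicate block, which pairs the libraries of a mouse, 0 genes and 0 members passed, and in the antibody experiment 0 genes; the block changed no other call counts by over 1.5 times.

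For anti-IL34 less anti-gp120 in isolates, 110 genes became 819 without the filter, 2020 with DESeq2, 983 without sex terms and 0 to 6905 without 1 animal, and members went from 0 to 2 with DESeq2 and 0 to 7 without 1 animal. Its tissue difference, 17 genes, became 48 with RLE size factors, 1345 without the filter, 1092 with DESeq2, 222 without sex terms and 0 to 5565 without 1 animal, and for members 0 became 2 with DESeq2 and 0 to 3 without 1 animal. In forebrain, 120 genes in KO became 385 without the filter, with 1 member, and 55 to 117 without 1 animal; 123 genes with anti-IL34 became 349 without the filter, 198 with DESeq2 and 20 to 127 without 1 animal. Leaving out KO 3 or anti-IL34 11 takes 1 sex out of an arm. Calls for KO less Het in isolates were 0 without KO 3. They were also 0 without Het 20, Het 23, KO 6 or KO 24, where both sexes remained in each arm. The cause was not tested. With 3 or 4 animals per arm, calls between arms within isolates depend on single animals, and depth limits mainly the members rare in forebrain.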
